A study of Mus musculus with 32 samples.

Results

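Moderate β-catenin induction that was then withdrawn was compared with the uninduced knockout after 4 days of monolayer differentiation. The comparison holds 8 of the 32 libraries of the series, taken by their labels: 4 libraries of C1MV (moderate, differentiated without further overexpression) and 4 of C1T (knockout, differentiating). C1 is a mouse embryonic stem cell (mESC) line without endogenous β-catenin. It carries a lentiviral fusion of the destabilising domain, mCherry and the S33Y form of β-catenin, transcribed from a TRE3G promoter when doxycycline (dox) is given and stabilised as a protein by trimethoprim (TMP). Both groups share this knockout and this transgene. For C1MV, cells were given 100 ng/mL dox and 10 μM TMP for 48 h, sorted for middle mCherry signal and differentiated in NDiff227 medium on gelatin with DMSO in place of both inducers. For C1T, cells were given 10 μM TMP alone for 48 h, sorted only as live cells and differentiated in the same medium with TMP. The groups therefore differ in dox during pretreatment, in the mCherry sort and in TMP during differentiation, and the parts of these 3 steps cannot be told apart. The same fractions collected before differentiation (day 0) are C1M and C1, C1HV is the withdrawn group sorted for high mCherry, and C1MDT is the moderate group kept in dox and TMP through day 4, with 4 libraries each.

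β-catenin links cadherins to the actin cytoskeleton at cell junctions and is also the transcriptional co-activator of the canonical Wnt pathway. Without a Wnt ligand it is phosphorylated in a destruction complex and degraded, and with one it accumulates and binds TCF/LEF factors at target genes. In mESCs it counteracts the repressor TCF7L1 at genes of naive pluripotency, and in the embryo Wnt signaling acts in primitive streak and endoderm formation. The S33Y change removes one of the phosphorylation sites through which the destruction complex marks the protein.

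Each library measured the 3′ ends of transcripts. The 4 C1MV libraries held 1366951 to 2780255 reads assigned to genes and the 4 C1T libraries 1570743 to 2464144, and levels are given as CPM, a gene's share of the library scaled to a fixed total, after scaling by TMM factors. One library, C1MV replicate 4, stood apart: it had the fewest reads, 15.6% of its uniquely aligned reads fell outside genes against 12.5 to 13.0% in the others of its group, and its counts differed more from theirs than theirs did from each other. On average, 0.815% of C1MV reads and 1.66% of C1T reads came from mitochondrially encoded genes, and the 2 sets of libraries did not overlap (exact permutation test, two-sided, p = 0.0286, adjusted p = 0.143 over 5 library measures). The labels call the libraries biological replicates and the study describes them as 4 samples of the same experiment, so p-values here measure the spread between those samples.

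The targeted gene was examined first. Ctnnb1 (chr9:120929216-120960507, mm10), the gene of β-catenin, had 8.16, 11.2, 12.4 and 7.18 CPM in the C1T libraries and 10.5, 7.11, 6.91 and 12.1 CPM in the C1MV libraries. The groups overlapped, and the log2 fold change of −0.18 (SE 0.26, edgeR quasi-likelihood test with Benjamini-Hochberg adjustment, adjusted p = 0.657) did not pass. At day 0, before withdrawal, the level was 7.81 ± 2.63 CPM in C1 and 12.3 ± 3.84 CPM in C1M, a log2 fold change of 0.61 (SE 0.25, adjusted p = 0.0553) that did not pass either, and it was 41.2 ± 5.70 CPM in C1H, the day 0 fraction sorted for high mCherry. Where the inducers stayed on, in C1MDT, the level was 29.2 CPM, higher than in C1MV by 1.74 on the log2 scale (adjusted p = 5.59e-12). A 3′ tag need not lie in the deleted part of the gene, so the counts in C1T do not test the knockout. Axin2 (chr11:108920349-108950783), a feedback inhibitor and common readout of the Wnt pathway, had 2.86 to 3.92 CPM in C1T and 1.45 to 4.49 CPM in C1MV, with a log2 fold change of −0.25 (SE 0.49, adjusted p = 0.751). At 27 and 26 reads in all, even a change of Axin2 well above the error of 0.49 could have been missed at this depth.

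Across the transcriptome, 4621 of 15280 genes tested differed between C1MV and C1T at an adjusted p under 0.05, which is 30.2% of them. Of these, 2341 genes (15.3%) were higher and 2280 genes (14.9%) lower in C1MV (2697 and 1940 with scaling by library size only), and the median log2 fold change over all genes tested was 0.01. In 4044 genes (26.5%) the 4 C1MV and 4 C1T values did not overlap, and 3498 of the genes past the threshold were among them, 1731 higher and 1767 lower. The larger changes leaned upward: 295 genes rose by more than 2 on the log2 scale and 186 fell by more than that. At least 1 group was at or under 3 reads in total for many of them, with 133 of the 295 so low in C1T and 79 of the 186 so low in C1MV, and their fold changes rest on the other group. Without C1MV replicate 4, 4522 genes passed.

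Among genes that passed, did not overlap and reached a mean of 20 CPM in the higher group, the 10 largest rises were Lama1, Spink1, Cited1, Amn, Htra1, Dab2, Srgn, Npl, Col4a2 and Pth1r. Lama1 (chr17:67697259-67822647), which encodes the α1 chain of laminin, had 3.36, 3.75, 4.29 and 6.53 CPM in C1T and 162, 195, 212 and 288 CPM in C1MV. Every C1MV library was thus far above every C1T library, and the fitted rise was 48.3-fold (log2 5.60, SE 0.21, adjusted p = 3.46e-24). Spink1, a secreted serine protease inhibitor, rose from 4.52 ± 1.43 to 141 ± 22.8 CPM (SD, n = 4 in each group here and below). Cited1, a transcriptional co-regulator, went from 0, 0.833, 2.86 and 0 CPM to 23.4, 26.6, 28.4 and 33.5 CPM, a log2 rise of 4.73 (SE 0.34, adjusted p = 3.6e-26).

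The other large rises were of mixed kinds. Amn, the membrane partner of the endocytic receptor cubilin, was at 2.91 to 4.77 CPM in C1T and 54.8 to 112 CPM in C1MV. Dab2, a clathrin adaptor of extraembryonic endoderm, was at 6.53 to 14.8 CPM in C1T and 156 to 273 CPM in C1MV, a fitted rise of 20.1-fold. The secreted protease gene Htra1 rose from 1.96 ± 1.17 to 47.7 ± 4.35 CPM. The day 0 level of Htra1 was already 64.6 CPM in C1 and 58.6 CPM in C1M, close to the C1MV level. Srgn, the core protein of a secretory granule proteoglycan, rose from 5.01 ± 1.25 to 91.6 ± 19.6 CPM. Npl, a lyase of sialic acid breakdown, rose from 1.28 ± 1.14 to 25.8 ± 13.5 CPM, with C1MV replicate 4 highest at 44.9 CPM. Pth1r, the receptor for parathyroid hormone and its related peptide, rose from 7.36 ± 2.45 to 90.6 ± 9.75 CPM.

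The 10 largest falls, by the same rule, were Sema6a, Proser3, Sema5b, Csf2ra, Pou2f2, Bmp4, Halr1, Cilp2, Tcf15 and Cnih2. Sema6a, a transmembrane semaphorin, had 47.99, 34.1, 45.3 and 30.7 CPM in C1T and 0.806, 2.62, 2.18 and 3.57 CPM in C1MV, and fell by 4.17 on the log2 scale (SE 0.32, adjusted p = 4.28e-24). Sema5b, another semaphorin, fell from 56.3 ± 10.4 to 5.53 ± 2.34 CPM. Proser3 fell from 24.9 ± 6.32 to 1.93 ± 1.57 CPM. Csf2ra, the ligand-binding chain of the GM-CSF receptor, fell from 29.5 ± 4.76 to 3.79 ± 1.24 CPM, and Pou2f2, an octamer-binding transcription factor, from 119 ± 18.1 to 19.7 ± 2.65 CPM. Bmp4, a secreted ligand of the BMP pathway, had 52.3, 52.9, 45.3 and 48.3 CPM in C1T and 7.26, 7.11, 8.36 and 14.3 CPM in C1MV, a log2 change of −2.51 (SE 0.22, adjusted p = 1.71e-20). Tcf15, a basic helix-loop-helix factor of cells leaving naive pluripotency, fell from 319 ± 27.5 to 59.1 ± 9.59 CPM. The long noncoding RNA Halr1, which lies beside the Hoxa cluster, fell from 267 ± 37.2 to 48.5 ± 10.4 CPM. Cilp2, a cartilage matrix protein gene, fell from 102 ± 13.5 to 17.9 ± 6.19 CPM and Cnih2, an auxiliary protein of AMPA receptors, from 33.2 ± 4.74 to 6.27 ± 0.59 CPM.

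**Figure D1:**
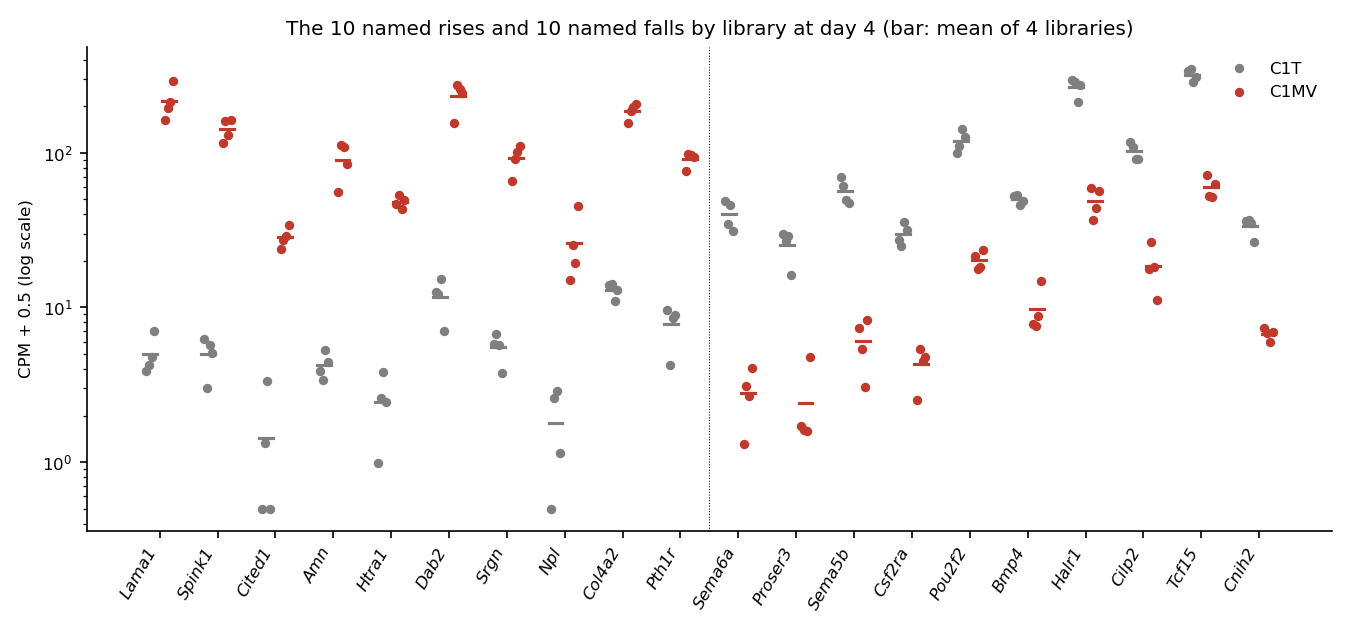
CPM plus 0.5 on a log axis for the 10 largest rises and the 10 largest falls, with a point for each of the 4 C1T (grey) and 4 C1MV (red) libraries at day 4 and a bar at each group's mean. In none of these 20 genes do the groups overlap, as the rule for choosing them required, and Lama1 shows the widest separation among the rises.

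Promoter windows are shown for 4 of these genes or their partners. They run from 250 bases before to 50 bases after the start site in RefSeq on GRCm38.p6, read 5′ to 3′ on the strand of the gene. Col4a2 (chr8:11312555-11312854, plus strand) and Col4a1 (chr8:11312777-11313076, minus strand) are given because both rose and are transcribed away from a shared region. Their start sites lie 23 bases apart, and capitals mark the 78 bases that the windows share.
Col4a2: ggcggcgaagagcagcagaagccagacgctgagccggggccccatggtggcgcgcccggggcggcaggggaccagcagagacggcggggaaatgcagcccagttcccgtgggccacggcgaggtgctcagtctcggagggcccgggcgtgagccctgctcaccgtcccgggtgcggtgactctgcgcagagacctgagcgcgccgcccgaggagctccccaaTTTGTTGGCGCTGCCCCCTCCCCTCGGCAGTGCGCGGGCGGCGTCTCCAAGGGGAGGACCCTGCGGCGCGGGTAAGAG
Col4a1: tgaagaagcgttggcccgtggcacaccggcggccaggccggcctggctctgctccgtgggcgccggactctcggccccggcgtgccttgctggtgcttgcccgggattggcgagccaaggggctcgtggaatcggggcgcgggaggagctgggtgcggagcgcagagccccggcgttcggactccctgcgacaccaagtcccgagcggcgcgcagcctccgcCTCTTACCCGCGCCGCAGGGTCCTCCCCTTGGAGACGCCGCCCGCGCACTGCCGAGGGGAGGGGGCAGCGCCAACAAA
Proser3 (chr7:30552256-30552555, minus strand) is given as the only 1 of the 16 windows examined that held a TCF/LEF motif, and capitals mark the match.
Proser3: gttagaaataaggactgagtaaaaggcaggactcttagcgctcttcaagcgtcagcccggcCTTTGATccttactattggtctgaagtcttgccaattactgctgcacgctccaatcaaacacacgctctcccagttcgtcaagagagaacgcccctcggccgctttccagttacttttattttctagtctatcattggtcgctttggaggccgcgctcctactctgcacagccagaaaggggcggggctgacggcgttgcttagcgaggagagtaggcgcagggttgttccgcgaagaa
Dab2 (chr15:6299539-6299838, plus strand) is given as the only 1 of those 16 windows with a GATA motif, in 2 places, and capitals mark them.
Dab2: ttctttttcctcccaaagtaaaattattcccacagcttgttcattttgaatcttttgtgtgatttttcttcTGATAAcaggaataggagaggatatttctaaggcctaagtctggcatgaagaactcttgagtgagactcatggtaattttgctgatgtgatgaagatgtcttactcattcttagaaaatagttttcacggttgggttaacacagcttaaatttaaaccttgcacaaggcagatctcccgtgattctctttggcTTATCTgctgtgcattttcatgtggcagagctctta

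The 16 windows were those of 8 rises and 8 falls that had an entry and did not lie on chromosome 18. The letters searched on both strands were CTTTGAA and CTTTGAT for TCF/LEF and AGATAA and TGATAA for GATA, of which CTTTGAT and TGATAA can overlap. The TCF/LEF letters stood in 8.07% of 19617 promoter windows of the annotation, in 6.00% of 11667 windows of genes tested, in 6.57% of those of genes higher in C1MV and in 6.02% of those of genes lower in C1MV. The GATA letters stood in 16.7%, 9.91%, 9.64% and 8.56% of the same sets. Shares in the genes higher and the genes lower in C1MV thus lay close to those of all genes tested, and a match of letters is no proof of a binding site.

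Most basement membrane genes tested rose. Of 26 genes listed, 23 were tested, of which 17 rose, none fell and 6 did not pass, where 15.3% of all genes rose, and their median log2 fold change was 1.51 (1.60 with genes at the read floor set at their bound) against 0.01 over all genes tested. The 3 genes not tested were the type IV collagen genes Col4a3, Col4a4 and Col4a6, which were too low. Col4a1 and Col4a2 encode the chains of the main type IV collagen network. Col4a1 (chr8:11198423-11312826) had 28.8, 34.98, 32.4 and 25.5 CPM in C1T and 308, 416, 382 and 447 CPM in C1MV, a fitted rise of 12.5-fold (log2 3.65, SE 0.12, adjusted p = 2.36e-33). Col4a2 (chr8:11312805-11449287) had 13.4, 13.7, 10.5 and 12.4 CPM in C1T and 156, 185, 198 and 207 CPM in C1MV, a 14.7-fold rise (log2 3.88, SE 0.14, adjusted p = 2.09e-56). The pair was separated by more than the spread in every library.

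Further rises of the list were laminin chain genes and genes of collagen processing. Besides Lama1, the laminin genes Lamb1 and Lamc1, whose products join the α1 chain in laminin-111, rose by 2.65 and 1.83 on the log2 scale. Lamc1 (chosen after its values were seen, as were the other genes of this paragraph except the Lama1 and type IV collagen genes) had 59.4 to 66.3 CPM in C1T and 181 to 255 CPM in C1MV. Sparc, a collagen-binding matrix glycoprotein, had 195, 209, 235 and 234 CPM in C1T and 1979, 2380, 2289 and 2406 CPM in C1MV, a 10.4-fold rise (log2 3.38, SE 0.08, adjusted p = 2.47e-83). Serpinh1, the collagen chaperone, rose by 2.64, Hspg2, which encodes perlecan, by 2.10, and P4ha1 and P4ha2, subunits of collagen prolyl hydroxylase, by 1.69 and 1.51. Lama5, Lama3, Lama4, Lama2 and Col4a5 did not pass, with log2 fold changes from 0.00 to 0.97. Summed over the list, levels were 797.5 to 875.3 CPM in C1T and 3852 to 4841 CPM in C1MV.

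Some transcription factor genes of the endoderm rose. Of 21 listed, 19 were tested, 8 rose, none fell and 11 did not pass, where 15.3% of all genes were higher. With a filter of at least 1 CPM in all libraries, which removes each gene under that level in any library, the rises numbered 1. The median log2 fold change was 0.71, or 0.40 with the 5 genes that were at or under 3 reads in 1 group set at the bound those reads allow. Sox17, an SRY-box factor needed for definitive and extraembryonic endoderm, had 2 reads in the 4 C1T libraries and 156 in the 4 C1MV libraries. The ratio of its depth-adjusted reads was 68.0 (95% counting interval 18.5 to 566.7), and its C1MV levels were 11.7, 21.7, 15.3 and 19.3 CPM (adjusted p = 2.94e-20). Sox7, a close relative, had 1 read in C1T and 41 in C1MV, a ratio of 35.8 (6.07 to 1446.5). Both were thus nearly without reads in every C1T library.

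GATA and forkhead factors stood among the rest of the rises. Gata6 and Gata4 encode zinc finger factors that drive primitive endoderm. Gata6 had 2.88, 4.58, 2.38 and 1.96 CPM in C1T and 26.6, 37.8, 30.5 and 33.5 CPM in C1MV (log2 3.36, SE 0.26, adjusted p = 2.44e-24). Gata4 had 0.96, 4.58, 3.34 and 0 CPM in C1T and 15.3 to 28.5 CPM in C1MV (log2 3.05, SE 0.32, adjusted p = 1.6e-15). No C1T library reached the lowest C1MV library for either gene. Foxq1, a forkhead factor, rose from 2.15 ± 0.681 to 27.6 ± 7.62 CPM, and Foxa2, a pioneer factor of endoderm that was chosen after its values were seen, from 2.00 ± 0.956 to 21.2 ± 2.62 CPM. Prdm1, which encodes a transcriptional repressor, also rose (log2 1.07). Eomes, Foxa3, Hhex, Hnf4a and Cxcr4 did not pass, with log2 fold changes of −0.17, −0.20, −0.05, 0.07 and 0.71. Cer1, an anterior endoderm antagonist of Nodal and Wnt, was too low to be tested.

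Effector genes of the visceral endoderm, the absorptive epithelium around the early embryo, rose or did not pass. Of 30 listed, 29 were tested, 14 rose, none fell and 15 did not pass (15.3% of all genes rose), with a median log2 fold change of 0.61, and the rises numbered 7 with 1 CPM in all libraries. Cubn, which encodes cubilin, had 2 reads in C1T and 145 in C1MV, a ratio of 63.2 (17.2 to 527.1), and its partners Amn and Dab2 rose as given above. Ihh, a hedgehog ligand of the endoderm, had 1 read in C1T and 62 in C1MV, a ratio of 54.1 (9.35 to 2169.9). Further rises were Amot (log2 3.12), Soat2 (2.27), Cldn6 (1.81) and Apoe (0.96), and the multiligand receptor gene Lrp2 rose by 0.63.

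Several plasma protein genes were among those that did not pass. Apoa1, the main apolipoprotein of high-density lipoprotein, had a mean of 712 CPM in C1T and 645 CPM in C1MV and a fitted log2 fold change of −0.14. Ttr, Trf, Rbp4, Fgb, Fgg and Fga had values from −0.40 to −0.20, and none passed. Afp, the α-fetoprotein gene, was too low to be tested. The summed level of the list was 2841 to 4565 CPM in C1T and 4541 to 5698 CPM in C1MV, so the sums overlapped slightly. Without C1T replicate 3, or with only the groups compared in the fit, 1 gene of the list fell. In bulk libraries, a different number of cells of a type and a different amount of RNA per cell cannot be told apart.

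**Figure D2:**
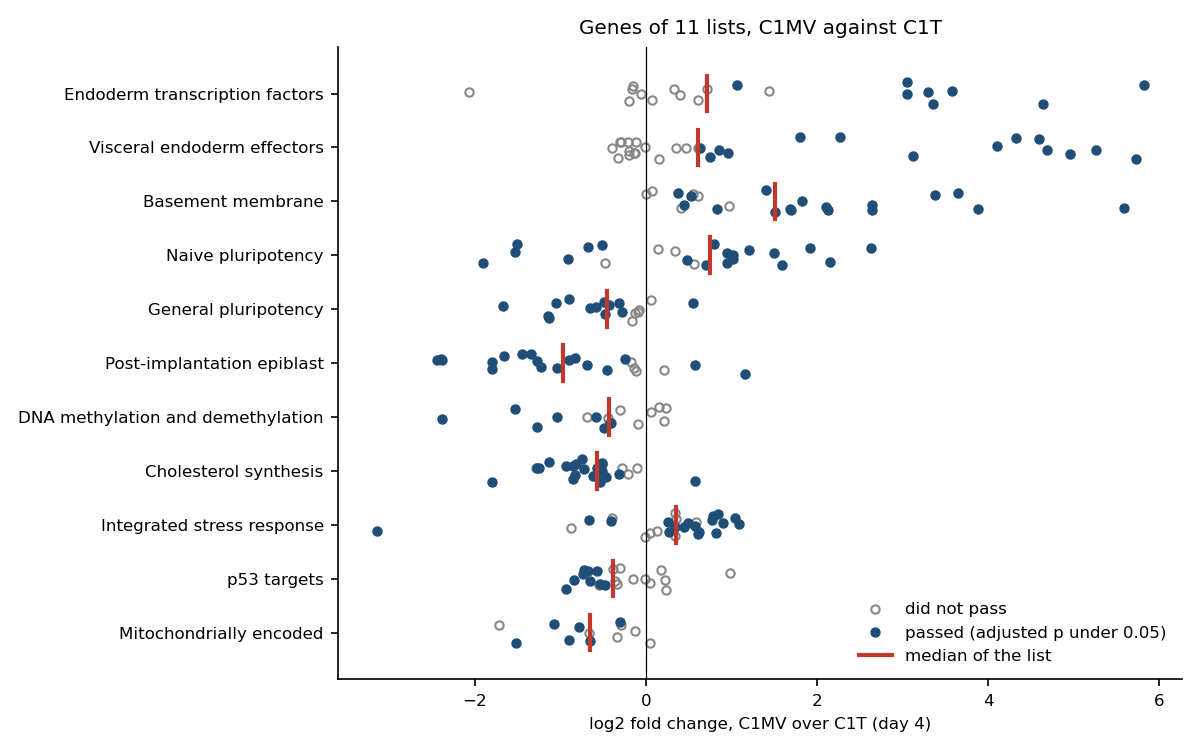
Log2 fold change of C1MV over C1T for each gene tested in 11 lists, with filled points for genes past the threshold, open points for the rest and a red line at the list's median. Basement membrane points lie to the right of 0 or on it and their median is 1.51, and post-implantation epiblast points lie mostly to the left with a median of −0.97.

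Genes of naive pluripotency, the state of the pre-implantation epiblast, were mostly higher after withdrawal. All 24 listed were tested, 14 rose, 6 fell and 4 did not pass, with a median log2 fold change of 0.75, where 15.3% of all genes were higher and 14.9% lower. Nanog, a core factor of that state, had 92.1, 89.5, 82.5 and 96.0 CPM in C1T and 194, 177, 148 and 219 CPM in C1MV (log2 1.02, SE 0.09, adjusted p = 1.01e-17). Tcl1, an AKT co-activator, had 42.7, 33.3, 30.99 and 26.8 CPM in C1T and 178, 138, 150 and 133 CPM in C1MV (log2 2.16, SE 0.12, adjusted p = 1.52e-34). Neither gene overlapped between the groups. For comparison, Nanog had 581 CPM in C1 and 667 CPM in C1M at day 0, and the days were not tested against each other.

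Other rises of the list were as follows. Socs3, the feedback inhibitor of STAT3, rose from 2.01 ± 0.484 to 7.56 ± 0.665 CPM, and Stat3 rose by 1.502 on the log2 scale. Klf4, a Krüppel-like factor named after its values were seen, rose from 40.01 ± 3.28 to 120 ± 23.6 CPM, and Klf2 and Klf5 rose by 1.02 and 0.95. The orphan receptor gene Esrrb and the zinc finger gene Zfp42 (also called Rex1) rose from 82.3 ± 9.63 to 142 ± 24.1 CPM and from 92.2 ± 17.0 to 148 ± 10.6 CPM. The 6 falls were Gbx2 (log2 −1.91), Zfp57 (−1.53), Manba (−1.51), Nr0b1 (−0.90), Tdh (−0.67) and Fgf4 (−0.51). Gbx2 is a homeobox gene that also acts in the neural plate, and Zfp57 a guardian of imprinted methylation.

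General pluripotency genes went the other way. Of 18 tested, 1 rose, 12 fell and 5 did not pass, with a median of −0.46, where 14.9% of all genes fell. Pou5f1, which encodes OCT4, fell from 64.5 ± 4.14 to 42.6 ± 7.60 CPM (log2 −0.58, SE 0.13, adjusted p = 8.69e-05). The chromatin-associated factor Utf1 had 330, 307, 287 and 274 CPM in C1T and 96.0, 85.0, 78.9 and 124 CPM in C1MV (log2 −1.67, SE 0.10, adjusted p = 3.35e-28). Dppa2, which partners DPPA4 at developmental promoters, fell from 112 ± 19.0 to 49.04 ± 15.6 CPM. Sox2 had 443 ± 28.2 CPM in C1T and 461 ± 75.3 CPM in C1MV, a log2 fold change of 0.06 (SE 0.09, adjusted p = 0.662). Sall4 had a log2 fold change of −0.09 (SE 0.08, adjusted p = 0.446).

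Post-implantation epiblast genes, which mark the formative and primed states that follow naive pluripotency, were mostly lower. Of 24 listed, 22 were tested, 2 rose, 16 fell and 4 did not pass, with a median log2 fold change of −0.97, where 14.9% of all genes fell. Dnmt3a, a de novo DNA methyltransferase, had 793, 748, 876 and 777 CPM in C1T and 148, 154, 143 and 171 CPM in C1MV (log2 −2.38, SE 0.08, adjusted p = 1.2e-60). Its partner Dnmt3b had 525, 536, 728 and 534 CPM in C1T and 219, 245, 234 and 271 CPM in C1MV (log2 −1.27, SE 0.09, adjusted p = 3.76e-22). The lowest C1T library was above the highest C1MV library by more than the spread for both enzymes.

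The kinase gene Pim2 fell from 165 ± 13.1 to 31.5 ± 3.96 CPM and Tcf15 fell as given above. Pou3f1 (also called Oct6), a POU factor of primed cells, had 256, 225, 304 and 236 CPM in C1T and 89.9, 112, 106 and 56.4 CPM in C1MV (log2 −1.45, SE 0.13, adjusted p = 7.33e-13). Fgf5, the classical marker of the post-implantation epiblast, fell from 15.2 ± 2.97 to 4.62 ± 1.74 CPM. Otx2, a homeobox factor of the same transition, had 308 ± 13.8 CPM in C1T and 279 ± 26.6 CPM in C1MV and did not pass (log2 −0.14, SE 0.08, adjusted p = 0.172). The 2 rises were the keratin gene Krt18 (log2 1.16) and Car14 (0.58), and 1 rose without C1MV replicate 2 or with 1 CPM in all libraries. In C1 at day 0, Dnmt3a stood at 46.3 CPM, Pou3f1 at 4.30 CPM and Fgf5 at 0.246 CPM, and C1MV lay above these values in all 3.

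In a list of enzymes and other factors of DNA methylation and demethylation, 16 genes were tested. Of these, none rose, 8 fell and 8 did not pass, with a median log2 fold change of −0.43, where 14.9% of all genes fell. Besides Dnmt3a, Dnmt3b and Zfp57, the falls were Tet1 (log2 −1.03), a 5-methylcytosine oxidase, the maintenance genes Uhrf1 (−0.58) and Dnmt1 (−0.40), and Trim28 (−0.48) and Mbd3 (−0.42). Dnmt3l, the catalytically inactive cofactor, had a log2 fold change of 0.21 and did not pass. Without C1T replicate 2, with no filter on low counts or with only the groups compared, 1 gene of the list rose. Zfp57 fell from 80.9 ± 4.36 to 30.1 ± 13.6 CPM.

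Within the Wnt pathway the changes were scattered over its levels. Of 31 ligand and receptor genes tested, 3 rose, 4 fell and 24 did not pass (median log2 fold change −0.16, or −0.15 with genes at the read floor set at their bound), a smaller share than the 30.2% of all genes. With 1 CPM in all libraries, 2 fell. Wnt3, the ligand needed for the primitive streak, had 6.72, 2.91, 8.10 and 3.26 CPM in C1T and 2.02, 1.498, 0.363 and 0.713 CPM in C1MV (log2 −2.12, SE 0.53, adjusted p = 0.000782). Rspo1, a secreted amplifier of Wnt signaling, fell from 6.24 ± 0.494 to 1.60 ± 0.91 CPM. Porcn, the acyltransferase that Wnt ligands need for secretion, fell by 1.19 on the log2 scale, while Wls, their transport receptor, rose by 1.65. Wnt7b and the receptor gene Fzd5 rose by 2.58 and 0.65.

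Of 26 intracellular transducers, 7 rose, 5 fell and 14 did not pass (median 0.04), where 15.3% of all genes were higher and 14.9% lower. Lef1, a transcription factor that binds β-catenin and is itself a target of the pathway, had 281, 263, 246 and 291 CPM in C1T and 89.9, 78.6, 70.5 and 67.8 CPM in C1MV (log2 −1.80, SE 0.10, adjusted p = 1.45e-32). The Groucho co-repressor gene Tle4 fell from 401 ± 20.8 to 174 ± 34.1 CPM, and Tcf7l1 fell by 0.39. Bcl9l, a co-activator that bridges β-catenin to Pygopus, rose by 0.99. Lef1 was at 2.51 CPM in C1 and 2.53 CPM in C1M at day 0, below both day 4 groups.

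Among 19 feedback and target genes tested of 26 listed, 3 rose, 3 fell and 13 did not pass (median 0.10, or 0.13 at the bound), near the 30.2% of all genes, and 1 rose and 1 fell with 1 CPM in all libraries. Sfrp1, a secreted Wnt antagonist, had 165, 182, 167 and 182 CPM in C1T and 590, 553, 631 and 524 CPM in C1MV (log2 1.73, SE 0.07, adjusted p = 6.7e-48). Dkk1, another antagonist, and Ascl2 rose by 3.23 and 1.03, and Lef1, Ccnd1 (−0.97) and Myc (−1.94) fell. The target genes Sp5, Rnf43, Lgr5, T and Cd44 were too low to be tested, and Axin2 did not pass.

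In the adhesion machinery that β-catenin also serves, 17 of 21 catenin and cadherin genes were tested, 5 rose, 3 fell and 9 did not pass (median 0.25, or 0.22 at the bound). The share that fell was near the 14.9% of all genes, and 15.3% of all genes rose. Cdh6, also called K-cadherin, had 2 reads in C1T and 51 in C1MV, a ratio of 22.2 (5.85 to 188.6). Dsp, which encodes the desmosomal plaque protein desmoplakin, rose from 13.0 ± 2.51 to 55.2 ± 2.64 CPM, and the desmosomal cadherin gene Dsg2 rose by 1.84 on the log2 scale. Cdh1, which encodes E-cadherin, fell by 0.75 and Cdh2, which encodes N-cadherin, by 0.83. The α-catenin gene Ctnna1 rose by 0.46. Without C1T replicate 1 or C1T replicate 3, 1 gene fell in place of 3.

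Of 24 genes of the epithelial state, 9 rose, 4 fell and 11 did not pass (median 0.25). The share that fell was near the 14.9% of all genes, and 15.3% of all genes rose. Krt8, a keratin of simple epithelia, rose from 3.22 ± 1.46 to 13.6 ± 4.28 CPM, and the tight junction genes Cldn6 and Cldn4 rose by 1.81 and 1.76. Esrp1, a splicing factor of epithelial cells, fell from 12.1 ± 2.52 to 3.85 ± 2.82 CPM, and Grhl2 fell by 1.66. Of 22 genes of the mesenchymal state, 8 rose, 1 fell and 13 did not pass (median 0.34, or 0.37 at the bound), beside the same shares of all genes. The members that moved furthest at higher levels were Anxa2, an annexin, which rose from 28.4 ± 3.80 to 124 ± 22.7 CPM, and Lgals1, a galectin, which rose from 69.1 ± 8.80 to 205 ± 29.96 CPM. Zeb1, Zeb2, Twist1 and Snai2, which repress epithelial genes, did not pass, and Snai1 rose by 2.10 from a mean of 0.536 CPM to 2.81 CPM. The count of falls in the mesenchymal list was 0 without C1MV replicate 3, C1T replicate 1 or C1T replicate 3 and 2 without C1MV replicate 4, with no filter on low counts or with only the groups compared.

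Mesoderm and streak genes showed no common direction. Of 27 tested of 32 listed, 4 rose, 5 fell and 18 did not pass (median log2 fold change −0.15, or −0.26 with genes at the read floor set at their bound), a share close to the 30.2% of all genes. With 1 CPM in all libraries, none rose and 1 fell. Pdgfra, a receptor of mesoderm that primitive endoderm also carries, had 0.48, 0, 1.91 and 0.653 CPM in C1T and 12.9, 18.3, 15.3 and 17.8 CPM in C1MV (log2 4.34, SE 0.43, adjusted p = 7.83e-17). Bmp4, Hoxb1 (−1.82), Wnt3, Mesp2 (−1.75) and Tbx4 (−1.14) fell. Eomes, a T-box factor of streak and endoderm, had 18.7 ± 3.01 CPM in C1T and 16.5 ± 3.72 CPM in C1MV (adjusted p = 0.583), and T, which encodes brachyury, had 2 reads in C1T and 0 in C1MV. Without C1T replicate 3, 2 genes rose and 3 fell. In the summed level the mesoderm list was lower in C1MV, 79.4 to 119.9 CPM against 172.6 to 203.0 CPM.

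Of 29 cardiovascular genes tested of 40 listed, 4 rose, 1 fell and 24 did not pass (median 0.34, or 0.24 at the bound), and 2 rose with 1 CPM in all libraries. Vegfa, the growth factor of vessels, rose from 17.7 ± 2.75 to 28.8 ± 6.57 CPM, and Efnb2, an arterial ephrin, did not pass (52.97 ± 7.41 and 50.99 ± 7.73 CPM, adjusted p = 0.787). Eng fell by 0.62 on the log2 scale, and without C1T replicate 2 no cardiovascular gene fell. Of 34 Hox genes tested, 4 rose, 4 fell and 26 did not pass (median −0.08, or 0.02 at the bound), and with 1 CPM in all libraries 1 rose and 1 fell. The shares of cardiovascular and Hox genes that passed lay below the 30.2% of all genes. Hoxa5 and Hoxa7, patterning genes of the cluster beside which Halr1 lies, fell from 15.4 ± 4.99 to 3.69 ± 1.12 CPM and from 12.5 ± 1.495 to 3.44 ± 1.22 CPM.

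Neuroectoderm genes, the default outcome of this culture, were split. Of 30 tested of 36 listed, 4 rose, 8 fell and 18 did not pass (median −0.36, or −0.40 at the bound), where 14.9% of all genes were lower. The falls numbered 2 with 1 CPM in all libraries. Sox1, an early neural factor, had 106, 94.5, 80.6 and 88.1 CPM in C1T and 86.3, 86.5, 94.5 and 89.9 CPM in C1MV, and the groups overlapped (log2 −0.05, SE 0.10, adjusted p = 0.767). Pax6, a homeobox factor of neural progenitors, fell from 24.0 ± 5.47 to 12.1 ± 4.02 CPM (adjusted p = 0.000179), and the proneural gene Neurod1 from 11.1 ± 2.87 to 2.35 ± 1.39 CPM. Tubb3, a neuronal tubulin, and Ncam1, an adhesion molecule, rose by 0.83 and 0.68 on the log2 scale. The summed levels overlapped, at 754.7 to 855.8 CPM in C1T and 791.2 to 816.5 CPM in C1MV.

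Trophoblast and germline genes were also mixed. Of 18 trophoblast genes tested, 6 rose, 4 fell and 8 did not pass (median 0.67, where 30.2% of all genes passed), and 2 fell with 1 CPM in all libraries. The rises were Krt8, Tead4 (log2 1.95), Esx1 (1.89), Krt18, Ascl2 and Tfap2c (0.93), and Cdx2 and Eomes did not pass. Of 29 germline and meiosis genes tested, 5 rose, 5 fell and 19 did not pass (median 0.02), a share near the 30.2% of all genes. Rhox13, an X-linked homeobox gene of germ cells, rose from 16.7 ± 4.49 to 65.7 ± 5.09 CPM, and Sycp1, a protein of the synaptonemal complex, fell from 27.3 ± 5.52 to 9.97 ± 1.58 CPM.

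Signaling pathways other than Wnt were examined next. In the Nodal and TGF-beta list of 25 genes tested, 6 rose, 4 fell and 15 did not pass (median 0.00), where 15.3% of all genes were higher and 14.9% lower. Inhbb, an activin subunit, fell from 17.1 ± 4.71 to 6.06 ± 4.48 CPM, with C1MV replicate 1 at 12.5 CPM and the others at 2.54 to 5.62 CPM. Acvr1b, a type I activin and Nodal receptor, rose from 5.74 ± 1.34 to 12.9 ± 0.76 CPM, and the Nodal co-receptor gene Tdgf1, chosen after its values were seen, fell from 254 ± 17.2 to 137 ± 13.6 CPM. Nodal itself had a log2 fold change of −0.14 and did not pass.

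In the BMP list of 23 genes tested, 5 rose, 4 fell and 14 did not pass (median 0.24), where 30.2% of all genes passed. Bmp4 fell, and its ID targets diverged: Id1 (log2 0.83, SE 0.30, adjusted p = 0.026), Id2 (0.75) and Id4 (1.05) rose, and Id3 fell by 1.15. The Id1 call rested on single libraries, since without C1MV replicate 3, C1T replicate 2 or C1T replicate 3 its adjusted p was 0.136, 0.0744 or 0.0949. In the list, 3 genes rose without C1MV replicate 4, C1T replicate 2 or C1T replicate 3, and 2 fell without C1MV replicate 3. Among 32 FGF and ERK genes, 6 rose, 9 fell and 17 did not pass (median 0.00, where 30.2% of all genes passed), and 3 rose with 1 CPM in all libraries. Fgf10, an FGF ligand, rose from 0.729 ± 0.589 to 7.98 ± 1.87 CPM and the receptor gene Fgfr3 from 1.13 ± 0.282 to 9.72 ± 3.18 CPM. The ERK feedback genes Spry4 (−1.28), Dusp6 (−0.89) and Spry2 (−0.63) and the ERK-responsive factors Etv4 (−1.34) and Etv1 (−1.01) fell.

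In metabolism, most cholesterol synthesis genes fell. Of 27 genes tested, 1 rose, 22 fell and 4 did not pass, with a median log2 fold change of −0.57, where 14.9% of all genes fell. Lss, which cyclises squalene epoxide to lanosterol, had 85.4, 95.4, 83.4 and 79.0 CPM in C1T and 24.2, 21.7, 26.2 and 27.8 CPM in C1MV (log2 −1.80, SE 0.14, adjusted p = 3.47e-24). Hsd17b7, a later enzyme of the route, fell from 40.2 ± 5.88 to 16.3 ± 1.96 CPM. Hmgcs1, an early enzyme that was chosen after its values were seen, fell from 484 ± 30.4 to 267 ± 21.4 CPM. Ebp was the rise (0.58), and the regulators Srebf2, Srebf1 and Insig1 did not pass. The summed level was 4532 to 4808 CPM in C1T and 2830 to 3122 CPM in C1MV.

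Of 25 glycolysis genes, 12 rose, 6 fell and 7 did not pass (median 0.20), where 15.3% of all genes were higher and 14.9% lower. Slc2a3, a high-affinity glucose transporter, rose from 294 ± 25.3 to 808 ± 53.1 CPM, and Eno2, an enolase, from 6.30 ± 0.798 to 16.0 ± 4.49 CPM. Slc2a1, the other main glucose transporter, fell by 0.59 on the log2 scale, and the lactate exporter gene Slc16a3 by 0.86. In the integrated stress response list of 27 genes, 15 rose, 3 fell and 9 did not pass (median 0.35), beside the same shares of all genes. Nupr1, a stress-induced chromatin protein, rose from 92.2 ± 10.4 to 195 ± 22.8 CPM and Ddit4, an inhibitor of mTORC1, from 299 ± 20.5 to 608 ± 175 CPM. The gene of the central factor, Atf4, fell by 0.67.

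Of 21 genes of the p53 response, none rose (1 with scaling by library size only), 9 fell and 12 did not pass (median −0.39), where 14.9% of all genes fell. Plk3 and Pmaip1, a kinase and a pro-apoptotic BH3-only protein, fell from 44.3 ± 11.2 to 23.7 ± 4.29 CPM and from 26.7 ± 2.66 to 15.0 ± 2.01 CPM. Cdkn1a, which encodes the inhibitor p21, fell by 0.54, and Mdm2, which encodes the ligase that removes p53, by 0.66. Among 33 replication and mitosis genes, 3 rose, 7 fell and 23 did not pass (median −0.07), a share near the 30.2% of all genes. The G1 to S cyclin genes Ccne1 and Ccne2 fell from 145 ± 11.2 to 66.2 ± 7.82 CPM and from 66.4 ± 6.08 to 31.8 ± 2.96 CPM. Without C1MV replicate 3, 5 of these genes rose, without C1MV replicate 4, 6 did, and with scaling by library size only, 7 did.

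Of 80 cytosolic ribosomal protein genes, 33 rose, 6 fell and 41 did not pass (median 0.10, against 15.3% higher and 14.9% lower over all genes). Rpl13 rose from 3686 ± 180 to 5724 ± 381 CPM. These genes have many processed pseudogenes, so how reads were assigned among copies can affect their counts. Their falls numbered 3 without C1MV replicate 1, C1MV replicate 4, C1T replicate 2 or C1T replicate 3 and with scaling by library size only. Of 79 nuclear genes of the respiratory chain, 19 rose, 15 fell and 45 did not pass (median 0.04, against 15.3% higher and 14.9% lower over all genes), with Atp5g1 falling from 312 ± 14.9 to 159 ± 19.8 CPM and Cox7a1 rising from 8.77 ± 2.98 to 15.7 ± 2.89 CPM. Of 12 mitochondrially encoded genes, none rose, 6 fell and 6 did not pass (median −0.66, against 14.9% lower over all genes). They summed to 16270 to 18660 CPM in C1T and 6862 to 9468 CPM in C1MV, with mt-Nd4 falling the most among those that passed (log2 −1.51).

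Markers of other cells were then examined. Of 9 fibroblast and connective tissue genes tested of 16 listed, 2 rose (Thy1 and Fbn1), none fell and 7 did not pass, and the list summed to 23.7 to 30.03 CPM in C1T and 29.97 to 43.6 CPM in C1MV. The rises numbered 1 without C1MV replicate 1, C1MV replicate 3, C1T replicate 2 or C1T replicate 4, by DESeq2, with no filter on low counts and with only the groups compared, and 0 with 1 CPM in all libraries. The collagen gene Col3a1 had 5 reads in C1T and 0 in C1MV, while Dcn, which encodes decorin, had 49 and 66 reads and the surface antigen gene Thy1 29 and 78. Of 12 blood genes tested of 16 listed, 2 rose (Runx1 and Kit, and 1 with 1 CPM in all libraries), 1 fell (Klf1, and none without C1MV replicate 3 or C1T replicate 3, by DESeq2 or with 1 CPM in all libraries) and 9 did not pass, and the list summed to 49.6 to 67.2 CPM in C1T and 74.1 to 90.9 CPM in C1MV. The leukocyte marker Ptprc had 3 reads in C1T and 2 in C1MV, while the globin genes Hbb-bs and Hba-a1 had 110 and 40 reads in C1T and 100 and 50 in C1MV. The shares of both lists that passed lay below the 30.2% of all genes. The part of either list in the results was not tested.

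Several strong changes lay outside the lists and are given as chosen after their values were seen. H19, an imprinted noncoding RNA, had 4.80, 6.25, 8.58 and 7.18 CPM in C1T and 33.1, 52.05, 58.9 and 29.97 CPM in C1MV (log2 2.74, SE 0.27, adjusted p = 2.21e-11). Fabp3, a fatty acid carrier, rose from 23.9 ± 2.59 to 288 ± 52.5 CPM and Wfdc2, a secreted protease inhibitor, from 7.83 ± 1.81 to 66.8 ± 7.31 CPM. Spp1, which encodes osteopontin, rose from 12.4 ± 2.82 to 73.4 ± 9.91 CPM. Gadd45g, a stress sensor, fell from 267 ± 27.4 to 55.4 ± 11.1 CPM.

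Next, the day 4 difference was set beside that of the same fractions before differentiation, C1M against C1. These comparisons share no libraries. At day 0, 4022 of the 15280 genes (26.3%) passed, 2184 higher and 1838 lower in C1M (2638 and 1447 with scaling by library size only). A total of 1763 genes passed at both days, which is 38.2% of the day 4 list and 43.8% of the day 0 list. Of these 1763, 649 were higher at both days, 617 lower at both, 259 higher at day 4 and lower at day 0, and 238 the reverse. The difference between the day 4 and day 0 fold changes itself passed in 3443 genes (22.5%), positive in 1676 and negative in 1767.

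For some of these genes the day 0 levels are given beside those at day 4. Lama1 had 13.9 CPM in C1 and 17.3 CPM in C1M (log2 0.30, adjusted p = 0.396), so at day 4 it was lower than these in C1T and higher in C1MV. Sparc fell at day 0, from 1329 CPM in C1 to 855 CPM in C1M (adjusted p = 6.63e-15), and rose at day 4. Dnmt3a did not pass at day 0, with 46.3 and 43.6 CPM (adjusted p = 0.65). Klf4 was lower in C1M than in C1 at day 0, at 756 against 1285 CPM (adjusted p = 1.99e-10), and higher in C1MV than in C1T at day 4. Of the 1763 genes that passed at both days, however, 1266 ran the same way and 497 the opposite way. Among named genes, Gata6, Dab2 and Amn had already passed as higher in C1M at day 0 (log2 1.45, 1.27 and 1.14). Sema5b, Lss, Pou5f1 and Dnmt3b had already passed as lower (log2 −1.70, −0.79, −0.72 and −0.59).

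Over all 15280 genes tested, 2184 were higher and 1838 lower in C1M at day 0. By list, 7 of the 23 basement membrane genes tested were higher and 6 lower at day 0, against 17 higher and none lower at day 4. Of the 29 visceral endoderm effectors tested, 3 were higher and 10 lower at day 0. The 22 post-implantation epiblast genes tested held 4 higher and 5 lower at day 0. For germline genes the order was reversed, with 21 of 29 higher and 1 lower at day 0 (median log2 fold change 1.44) against 5 and 5 at day 4. Ribosomal protein genes were higher in 59 of 80 at day 0 and in 33 at day 4. Of the glycolysis genes, none rose and 16 of 25 fell at day 0, and 12 rose at day 4. Some other lists leaned at day 0 as they did at day 4. Cholesterol synthesis genes were lower at day 0 in 14 of 27 and higher in 1. General pluripotency genes were lower in 8 of 18 and higher in 1. DNA methylation and demethylation genes were lower in 6 of 16 and higher in none. Integrated stress response genes were higher in 12 of 27 and lower in 3.

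**Figure D3:**
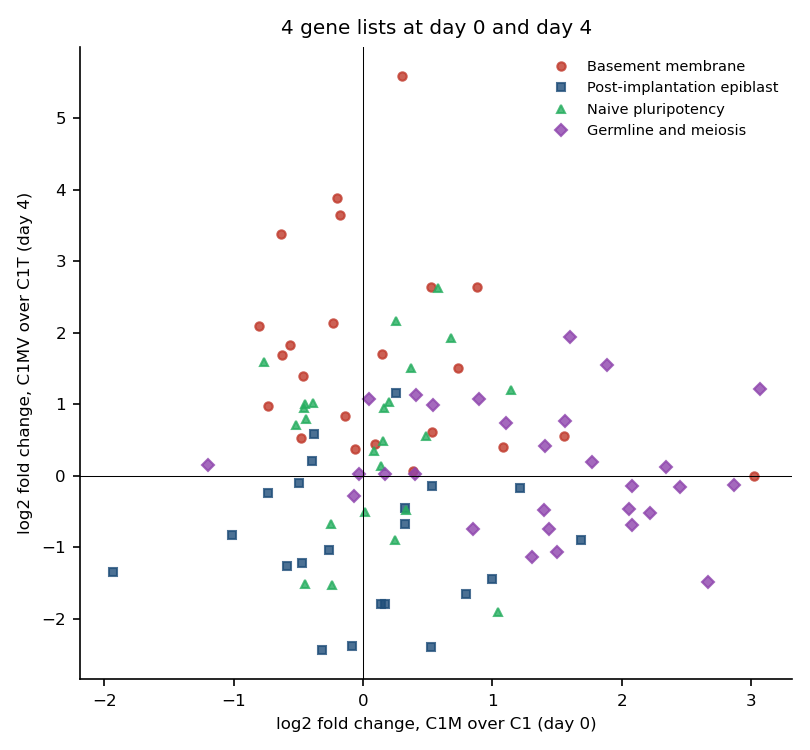
Log2 fold change of C1MV over C1T at day 4 (vertical) against that of C1M over C1 at day 0 (horizontal) for the genes tested in 4 lists, a point for each gene. Basement membrane points spread upward on both sides of 0 on the day 0 axis, and germline points spread to the right at day 0 around 0 at day 4, with list medians of 1.51 and 0.02 at day 4.

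The withdrawn cells sorted for high mCherry, C1HV, differed little from C1MV at the level of single genes. This comparison shares the C1MV libraries with the main one. In edgeR, 1 of 15280 genes (0.00654%) passed, Slc13a5, a citrate transporter gene, which was 5.97 CPM in C1HV and 14.7 ± 3.84 CPM in C1MV, and 1150 genes (7.53%) had an unadjusted p under 0.05. By DESeq2 the count was also 1. Without single libraries it ranged from 0 to 8, with 0 on leaving out C1MV replicate 1 or C1HV replicate 3 and 8 on leaving out C1MV replicate 4. Lama1 was 208 CPM, Col4a2 183 CPM, Sparc 2149 CPM, Gata6 32.2 CPM, Nanog 163 CPM and Dnmt3a 178 CPM in C1HV. A gene that did not pass is not shown to be equal in the groups, and over all genes the median absolute log2 difference was 0.18.

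Cells kept in dox and TMP, C1MDT, differed from C1MV in 1924 genes (12.6%), with 1015 higher and 909 lower in C1MDT (950 and 998 with scaling by library size only). Here too the C1MV libraries are shared with the main comparison. Naive pluripotency genes were lower in C1MDT in 16 of 24 and higher in none, and Nanog was 81.9 CPM against 185 ± 29.98 CPM in C1MV and 90.0 ± 5.68 CPM in C1T. Cholesterol synthesis genes were higher in C1MDT in 23 of 27 and lower in none, with Lss at 56.6 CPM. Post-implantation epiblast genes were higher in 9 of 22 and lower in none, with Dnmt3a at 286 CPM and Dnmt3b at 531 CPM. Basement membrane genes were higher in 5 of 23 and lower in 3, with Lama1 at 208 CPM, Sparc at 3249 CPM and Col4a1 at 588 CPM.

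**Figure D4:**
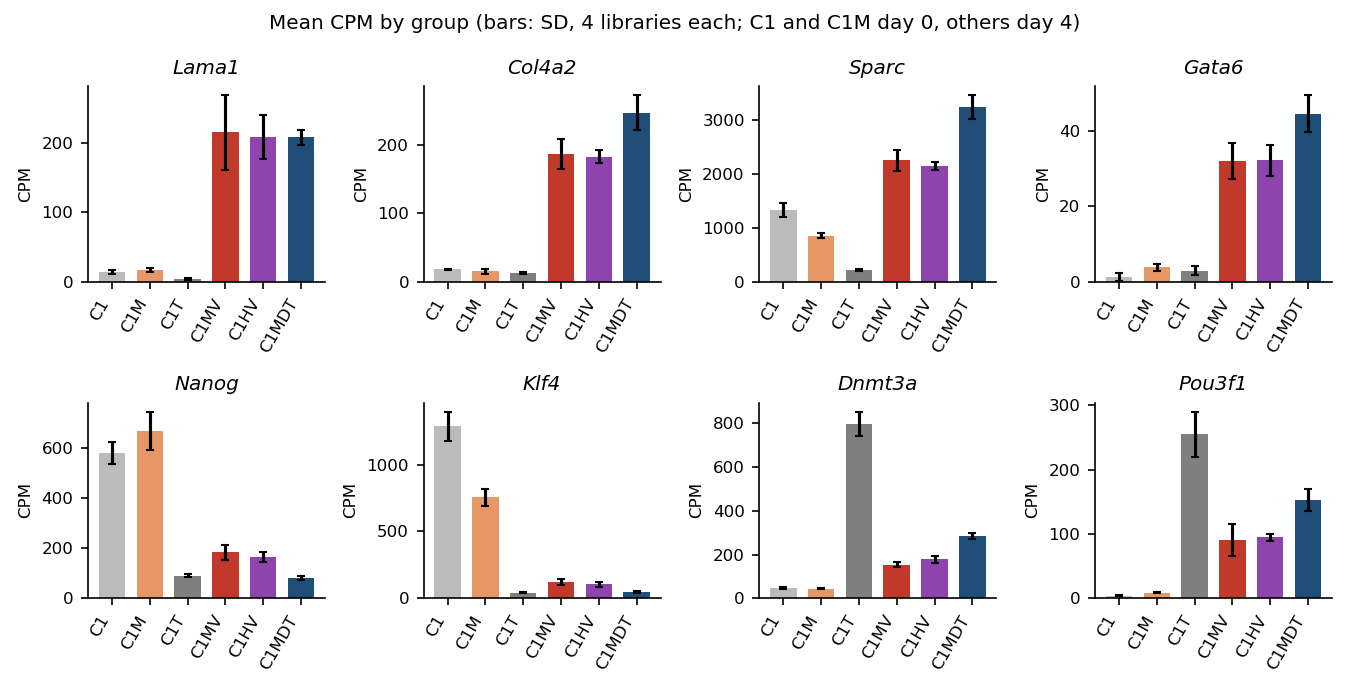
Mean CPM with SD over 4 libraries in C1 and C1M at day 0 and in C1T, C1MV, C1HV and C1MDT at day 4 for 8 genes, each on its own axis from 0. Lama1, Col4a2 and Gata6 are high in C1MV, C1HV and C1MDT and low elsewhere, Nanog and Klf4 are higher in C1MV and C1HV than in C1T and C1MDT, and Dnmt3a and Pou3f1 are highest in C1T.

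By chromosome, apart from the mitochondrially encoded genes given above, 2 sets of genes stood out and are given as values. On the Y chromosome, 3 of 4 genes tested were lower in C1MV, with a median log2 fold change of −2.30, and the median at day 0 was −2.31. Ddx3y, an RNA helicase gene, had 22.1, 21.2, 13.8 and 18.3 CPM in C1T and 4.84, 5.99, 2.54 and 6.42 CPM in C1MV, and it was 34.3 CPM in C1 and 5.77 CPM in C1M at day 0. Eif2s3y, a translation initiation factor gene, fell from 5.60 ± 1.78 to 0.767 ± 0.888 CPM, and Uty, a histone demethylase relative, had 37 reads in C1T and 1 in C1MV. All 3 were chosen after their values were seen. The Y median was also taken as a log2 ratio to the C1T mean with 1 CPM added to both levels, which shrinks it for genes at low levels. On this measure it was −1.30 in C1HV, −1.78 in C1MDT and −1.96 to −1.55 in single C1MV libraries. These values are not on the scale of the fitted −2.30.

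On chromosome 8, the median log2 fold change of 849 genes tested was 0.15, with 23.8% of them higher and 9.89% lower in C1MV, against 15.3% and 14.9% over all genes. The median was also 0.15 without C1MV replicate 4 and 0.17 at day 0, where chromosome 12 had 0.17 as well but stood at 0.01 at day 4. On the ratio measure used for the Y chromosome, the chromosome 8 median was 0.06 in C1HV, 0.10 in C1MDT and 0.07 to 0.10 in single C1MV libraries. These values are not on the scale of the fitted 0.15. Col4a1, Col4a2, Sfrp1 and Rpl13 lie on chromosome 8. What part the Y-linked and chromosome 8 values have in the other differences was not tested.

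**Figure D5:**
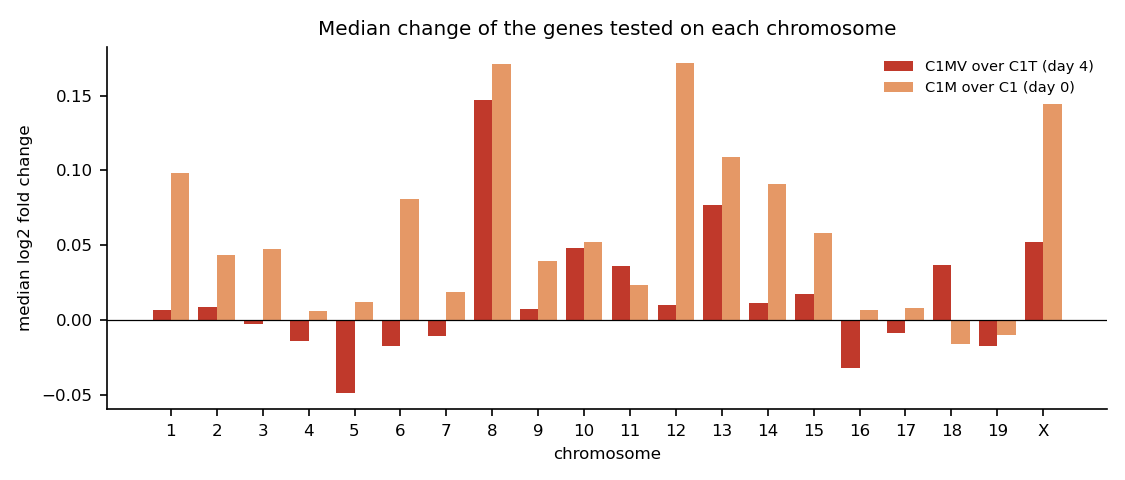
Median log2 fold change of the genes tested on each autosome and the X chromosome, for C1MV over C1T at day 4 (red) and C1M over C1 at day 0 (orange). Chromosome 8 has the tallest bar at day 4, 0.15, and chromosomes 8 and 12 the tallest at day 0, 0.17 each.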

How the data were processed

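QuantSeq 3′ mRNA libraries of 32 samples (8 groups of 4) were sequenced by the authors without molecular identifiers. Reads were trimmed (bbduk), mapped by STAR against mm10 and counted by htseq-count. The deposited values are raw counts of uniquely aligned reads per Ensembl gene, 1 file per library, with no normalization. Lines that name no gene were left out; of uniquely aligned reads, 12.5 to 15.6% (C1MV) and 14.4 to 14.8% (C1T) fell outside genes. The labels describe serum and LIF culture, whereas the study's methods describe 2i and LIF for 3 passages.

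Genes that reached 1 CPM in 4 or more libraries entered the test in edgeR 4.0.16 (R 4.3.3), quasi-likelihood with robust dispersion and TMM factors, in 1 fit of all 32 libraries, with Benjamini-Hochberg adjustment and a threshold of 0.05. The standard error is the log2 fold change divided by the square root of F. Symbols were taken from the GENCODE annotation, which named 31011 of 31053 genes. The fit was tested on simulated data for C1MV against C1T over 15280 genes, 200 of them changed. The changed genes were drawn from those with at least 5 CPM in C1T, and no library was made to stand apart. Of genes changed by 1 on the log2 scale 79.3% were recovered, of those changed by 2 98.9%, and 3.30% of calls were false. These rates do not cover genes at lower levels or a library such as C1MV replicate 4. Alternatives were RLE factors, library size only, DESeq2 1.42.0, other filters, only the groups compared, a replicate block and leaving out each library.

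Totals of 0 to 3 reads over the 4 libraries of a group were treated as a floor. Intervals cover counting error only. Named genes were Ctnnb1 and Axin2, the 10 largest rises and 10 largest falls past the threshold without overlap and with a mean of at least 20 CPM in the higher group, and from each list the 2 largest changes past the threshold without overlap and with at least 5 CPM (or, where fewer qualified, the highest gene that did not pass), plus fixed cell type markers. Other list members were named after their values were seen. Members, lists and rules were chosen with earlier results of these data known. Some genes, including one that the rule chose, are not reported here.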

Additional observations from a re-analysis of the deposited data

Results flagged for a closer look

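In 11 of 220 groups of 4 libraries looked at among the named genes, the highest or lowest library stood apart by Dixon's criterion, and chance flags about 1 in 20 groups. In C1MV these were Proser3 at 4.28 CPM (replicate 4, highest), Hoxa5 at 2.02 CPM (replicate 1, lowest), Col1a1 at 3.64 CPM (replicate 3, highest), Hbb-bs at 7.11 CPM and Hba-a1 at 1.498 CPM (replicate 2, lowest in both) and Gadd45g at 71.9 CPM (replicate 2, highest). In C1T these were Cnih2 at 26.1 CPM (replicate 4, lowest), Gbx2 at 32.5 CPM (replicate 2, highest), Dnmt3b at 728 CPM (replicate 3, highest), and Hbb-bs at 17.6 CPM and Slc13a5 at 3.92 CPM (replicate 4, highest in both).

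The difference between the fold change at day 4 (C1MV over C1T) and that at day 0 (C1M over C1) was tested as an interaction term in edgeR. The 10 largest rises and 10 largest falls were chosen by the day 4 fold change that enters this difference, so their values are a description and do not show a change particular to day 4. For the rises it was 5.30 for Lama1, 4.84 for Spink1, 4.71 for Htra1, 4.09 for Cited1, 4.09 for Col4a2, 3.65 for Srgn, 3.65 for Npl, 3.54 for Pth1r, 3.45 for Amn and 3.05 for Dab2 on the log2 scale. For the falls it was −5.16 for Sema6a, −4.18 for Proser3, −2.77 for Cilp2, −2.67 for Bmp4, −2.38 for Cnih2, −2.36 for Csf2ra, −2.13 for Tcf15, −1.96 for Halr1, −1.90 for Pou2f2 and −1.72 for Sema5b.

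In 11 other named genes the fold changes at both days passed with opposite signs and the difference passed. All but the markers Esrrb, Zfp42 and Pou3f1 were named with their day 4 values in use, and all are given here for their opposite signs, so these values too are a description. It was positive, so the change ran from lower at day 0 to higher at day 4, for Sparc (4.01), Anxa2 (2.84), Dsp (2.62), Lamc1 (2.39), Klf4 (2.36), Esrrb (1.24) and Zfp42 (1.22). It was negative for Sycp1 (−4.15), Gadd45g (−3.33), Pmaip1 (−2.79) and Pou3f1 (−2.45), which were higher in C1M than in C1 at day 0 and lower in C1MV than in C1T at day 4.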

How the results depend on the processing

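The count of genes past the threshold for C1MV vs C1T was 4063 to 4522 without single libraries and 4088 to 4637 under the other alternatives, against 4621. It was 4582 in the fit blocked on replicate number. Deviations of libraries that share a number had a mean correlation of 0.0101 (−0.0117 to 0.0242) against −0.0034 (−0.0322 to 0.0221) for other pairs. No clear pairing by number was seen, but counting noise in these deviations could hide one. The block moved no count past 1.5 times. For C1HV against C1MV, where 1 gene passed, 3 passed with no filter on low counts, 0 with only the groups compared and 0 to 8 without single libraries; the cause was not tested.

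Of 118 named results under 15 alternatives, 116 kept their direction and side of the threshold in all that gave a value. Id1 lost its call without C1MV replicate 3, C1T replicate 2 or C1T replicate 3, and Col1a1 passed (log2 3.00, adjusted p = 0.0213) without C1T replicate 3, with 0.0213 the only such value among its alternatives. No result reversed. Of 64 counts of list genes, 37 stayed within 1.5 times in every alternative; at 1 CPM in all libraries, which leaves fewer genes, 1 endoderm factor and 7 visceral endoderm effectors rose against 8 and 14. Depth limits genes at a few reads, whose ratios carry wide intervals.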
